A study of Arabidopsis thaliana with 8 samples.

Results

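AT1G56060 and AT1G19020 are Arabidopsis thaliana genes for small stress-responsive proteins. They were picked by name, for their bright signal and their higher level in one group of cultures, and are 2 of 7471 genes that had a probe set of their own and passed a filter on low signal. Each was read by 1 probe set, 262085_at for AT1G56060 and 259479_at for AT1G19020, so both are accounted for in every value below. Because the difference between the groups served to choose them, that difference is described for these genes and not tested.

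The material was Landsberg erecta (Ler, stock code NW20) cells in culture. All cultures were kept at 24 °C and shared one medium, Murashige and Skoog salts with sucrose and 2 hormones, NAA (an auxin) and kinetin (a cytokinin). Total RNA was labelled with biotin and measured on 8 arrays, 4 titled fum and 4 titled met, each numbered 1 to 4. The labels expand neither name, name no control and give no culture age or time of harvest, so every difference is fum minus met. The study's title names a search for core genes of plant programmed cell death, and whether the arrays of a group stem from separate cultures is not stated. The p-values below therefore measure the spread between these arrays, which may be technical.

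Plant cells answer wounding, pathogens and oxidative stress with a fast rise of many transcripts, and genes for short proteins are common among them. AT1G56060 belongs to the family of proteins with a cysteine-rich transmembrane module, in which a short polypeptide ends in a cysteine-rich stretch that associates with membranes, and members of this family are known for induction by stress in plants and yeast. AT1G19020 encodes a small protein whose biochemical function is not settled. It is known as one of a handful of genes that rise in nearly all experiments with reactive oxygen species, a group that also holds AT1G05340, a relative of AT1G56060.

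AT1G56060 was high on every fum array and low on every met array. Its deposited signal, which is a linear brightness in arbitrary units, was 704.7, 755.0, 1124.9 and 835.3 on fum replicates 1 to 4. On met replicates 1 to 4 it was 218.0, 176.0, 121.5 and 126.1. The groups did not overlap, and the lowest fum array stood 3.23-fold above the highest met array. Fum averaged 855 ± 188 and met 160.4 ± 45.65 (n = 4, SD), and the ratio of geometric means was 5.40 (log2 difference 2.43, SE 0.20). Among 13647 probe sets this was the 4th largest log2 difference towards fum, and among the 7471 genes it was the 1st. The contrast that chose the gene also sets this rank, so nothing is read from it.

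AT1G19020 had the same direction with a smaller ratio of fum to met. Its signal was 844.8, 865.0, 1005.7 and 799.3 on fum replicates 1 to 4 and 360.0, 331.8, 290.8 and 260.7 on met replicates 1 to 4. Again no fum array overlapped a met array, and the lowest fum array stood 2.22-fold above the highest met array. Fum averaged 879 ± 89.0 and met 311 ± 43.9 (n = 4, SD), a 2.84-fold ratio (log2 difference 1.50, SE 0.12) that ranked 8th among the genes and 20th among the probe sets. Such a lack of overlap towards fum was found for 6.04% of the 13647 probe sets (12.4% in either direction). Since this contrast chose the genes, nothing is read from their share or their ranks. A probe set was called at a limma adjusted p under 0.05 in 2.57% of cases, 1.47% higher and 1.11% lower in fum.

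**Figure D1:**
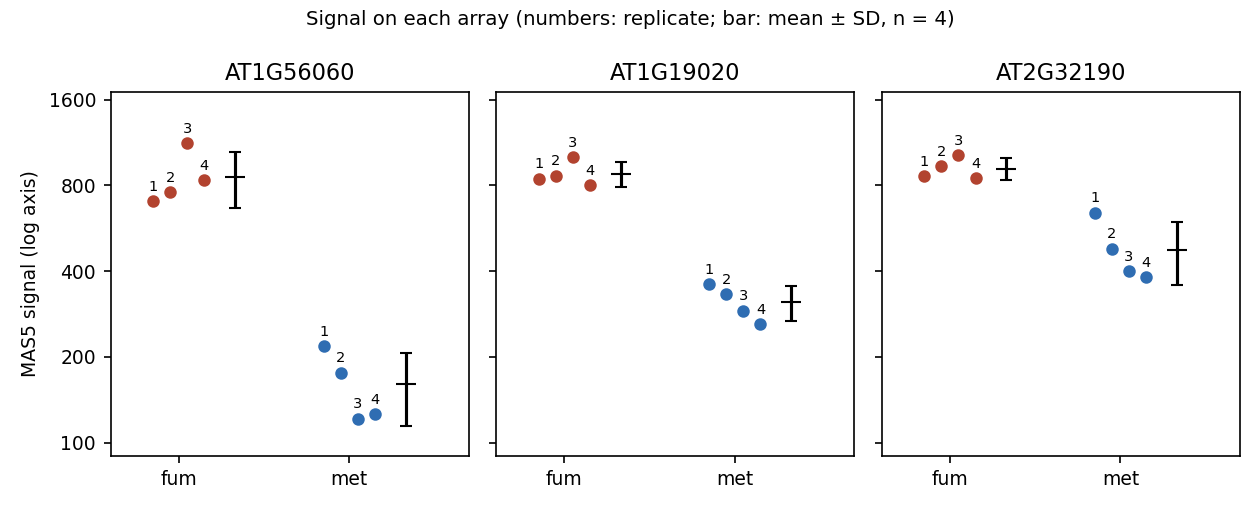
MAS5 signal (log axis) of AT1G56060, AT1G19020 and the family member AT2G32190 on each of 4 fum (red) and 4 met (blue) arrays, with replicate numbers beside the points and the mean ± SD in black. In all 3 genes each fum point lies above each met point, and the step is widest for AT1G56060, from 160.4 to 855.

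Bright signal was part of the reason for choosing both genes, so their place among all probe sets is given as a description only. In fum, AT1G56060 was brighter than 97.1% of probe sets and AT1G19020 brighter than 97.3%. In met these shares were 80.7% and 90.3%. Probe sets differ in how strongly they bind, so the signal of one gene is not set against that of the other.

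The ratio between both genes on the same array does not depend on how the array was scaled. The log2 ratio of AT1G56060 to AT1G19020 was -0.26, -0.20, 0.16 and 0.06 on fum replicates 1 to 4. It was -0.72, -0.91, -1.26 and -1.05 on met replicates 1 to 4, below every fum value. This log2 ratio averaged -0.06 ± 0.20 in fum and -0.99 ± 0.23 in met (n = 4, SD). The difference of AT1G56060 thus exceeded that of AT1G19020 by 0.93 on the log2 scale, or 1.90-fold, and the excess lay between 0.84 and 1.02 over all settings and omissions tried.

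Within the groups AT1G56060 varied more than transcripts of like brightness. Its SD on the log2 scale was 0.30 in fum and 0.40 in met, where the median of 1459 probe sets within 0.5 of its mean log2 signal was 0.13 and 0.17. AT1G19020 stood closer to such transcripts, with SDs of 0.14 and 0.21 against medians of 0.12 and 0.16 over 1053 probe sets. For both genes this window of mean signal lay below every fum array and above every met array of the gene. The spread was therefore not compared at the brightness that the gene had in either group. The highest fum array of AT1G56060 read 1.60-fold over the lowest, and its highest met array 1.79-fold over the lowest, whereas these ratios were 1.26 and 1.38 for AT1G19020. The median log2 difference of the compared transcripts was -0.01 for AT1G56060 and -0.03 for AT1G19020.

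The spread within the groups ran beside the 25S ribosomal RNA control of the arrays. It was low on 3 arrays, fum replicate 3 (157.6), met replicate 1 (824) and met replicate 2 (1305), and lay between 2806 and 4491 on 5 others, with both groups on both sides (exact permutation test, two-sided, p = 0.743 over 70 assignments). Fum replicate 3 was the highest fum array of both genes, and met replicates 1 and 2 were the highest met arrays of both. For AT1G56060 the order of the arrays within each group was the exact reverse of the order of the 25S signal. AT1G19020 did not follow it throughout, as fum replicate 4, with a 25S signal (2806) below those of fum replicates 1 and 2, was its lowest fum array (799.3) and met replicate 3 (290.8), with the highest 25S signal, read above met replicate 4 (260.7). Of the 13647 probe sets, 11.6% had the 3 low-25S arrays highest within both groups, and 13.5% had them lowest. Neither share was compared with chance, and the part of the 25S control in the spread was not tested.

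The same signals were also read on each kind of array, as a description without a test. Within the 5 arrays with high 25S signal, AT1G56060 averaged 765 on 3 fum arrays and 123.8 on 2 met arrays, a 6.17-fold ratio (log2 2.62). On the 3 arrays with low 25S signal it read 1125 on the single fum array and averaged 197 on 2 met arrays, a 5.74-fold ratio (log2 2.52). AT1G19020 had ratios of 3.04 and 2.91 on these arrays (log2 1.60 and 1.54). This division of the arrays was made after the data had been seen.

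**Figure D2:**
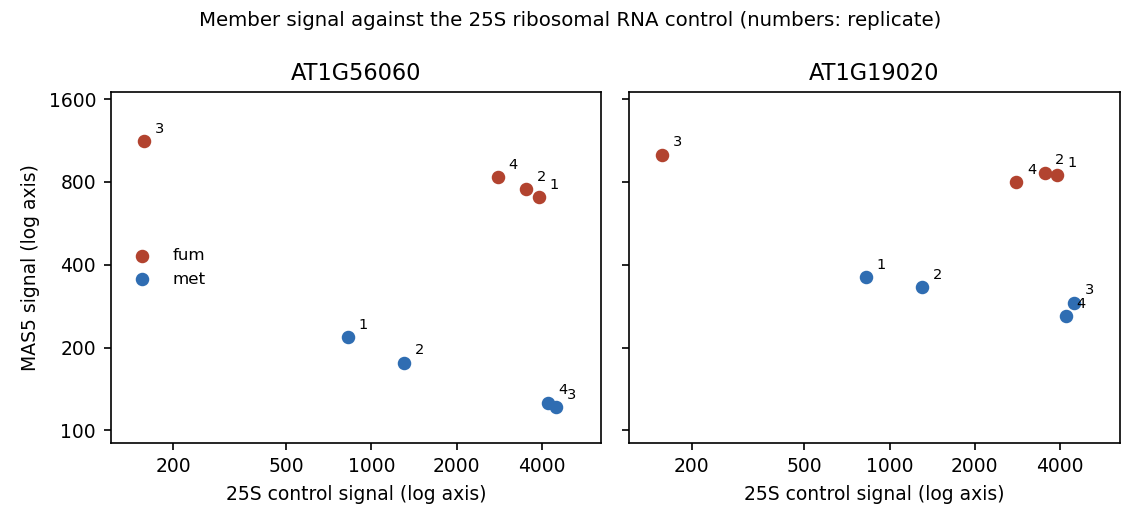
MAS5 signal of AT1G56060 (left) and AT1G19020 (right) against the signal of the 25S ribosomal RNA control, both on log axes, for 4 fum (red) and 4 met (blue) arrays with their replicate numbers. Within each group the arrays with low 25S signal (157.6 on fum replicate 3, 824 and 1305 on met replicates 1 and 2) carry the highest values, and all fum points lie above all met points.

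Other array controls were read as well. The 3′ to 5′ signal ratio of actin was 12.01 on met replicate 1 and between 1.92 and 2.39 elsewhere (exact permutation p = 0.371). Met replicate 1 also had the highest ratios of ubiquitin, 2.94 against 1.44 to 1.73 elsewhere, and of GAPDH, 1.80 against 1.04 to 1.42 (exact permutation p = 0.943 for each). Signals of 9 spiked-in hybridization probe sets had geometric means of 222.8 to 375.4 on fum and 346.6 to 532.7 on met arrays, 1.61-fold higher in met (exact permutation p = 0.0571, 0.285 after adjustment over 5 controls, where 4 arrays against 4 allow no p below 0.0286). The group means of the hybridization controls ran opposite to those of both genes, whereas among the met arrays replicate 1 was highest for these controls, for the actin ratio and for both genes. The part of these controls in the differences was not tested. Without met replicate 1 the log2 difference was 2.59 for AT1G56060 and 1.58 for AT1G19020. Over the omission of each array in turn it ranged from 2.29 to 2.59 and from 1.42 to 1.58. With 16 added to each signal, the differences were 2.32 and 1.46. Array medians lay between 33.1 and 41.5, and precision is limited by the number of arrays.

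The relatives of both genes were taken from known protein families and were tested in one fit across all probe sets. Of 14 loci, 13 of the cysteine-rich transmembrane family and AT3G48180, the closest known relative of AT1G19020, 6 had a probe set of their own in the annotation used and 5 passed the filter. AT3G48180 was not among them. Of the 5 tested, 1 rose, 0 fell and 4 did not pass, beside 1.47% of all probe sets that rose. At an unadjusted limma p below 0.05, 2 were higher and 1 was lower, where 17.9% of all probe sets had such a p in either direction. The median log2 difference of the 5 was 0.15, beside -0.0036 over all 7471 genes.

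The relative that rose was AT2G32190, which lies in a row with the family genes AT2G32200 and AT2G32210. Its signal was 860.5, 932.7, 1022.4 and 848.2 on fum replicates 1 to 4 and 640.2, 479.8, 400.2 and 381.4 on met replicates 1 to 4. No array of one group overlapped the other, and met replicate 1 came nearest to fum. Fum averaged 916 ± 80.2 and met 475 ± 118 (n = 4, SD), a ratio of 1.96 (log2 0.97 with an SE of 0.15, limma adjusted p = 0.0073). This call held in the omission of each array and in every planned setting, with log2 differences from 0.88 to 1.13 over the omissions. On the 3 arrays with low 25S signal, of which 1 is fum and where 12 probe sets in all were called, the log2 difference was 0.88 (adjusted p = 0.792, in a range from 0.000169 over all settings). On the other 5 arrays the ratio was 2.25-fold.

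AT1G05340 was bright in both groups and did not pass. It read 1264.5, 1255.0, 1317.2 and 1237.4 on fum replicates 1 to 4 and 1350.4, 975.1, 1006.0 and 950.2 on met replicates 1 to 4. The groups overlapped through met replicate 1 alone, the array with the high actin ratio. The ratio of fum to met was 1.20 (log2 0.26, 95% interval 0.02 to 0.50, limma adjusted p = 0.25). Without met replicate 1 it was 0.38 on the log2 scale and passed (limma adjusted p = 0.0157, in a range of 0.0157 to 0.977 over all settings), so the count of relatives that rose became 2 of 5. The count was also 2 after quantile normalization, with array weights and on the 5 arrays with high 25S signal.

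The remaining relatives did not pass. AT3G22240 was the brightest of them, with 3554 ± 443 in fum and 4017 ± 556 in met (n = 4, SD; log2 -0.17, limma adjusted p = 0.483). AT4G33660 had lower signal in fum, at 139.9 to 158.8 against 172.3 to 245.3 in met, with no overlap between the groups (log2 -0.40, adjusted p = 0.114). It passed as lower with array weights. AT5G04080 was dim, at 25.9 to 32.0 in fum and 16.5 to 39.2 in met, with a 95% interval of the log2 difference from -0.44 to 0.74 (adjusted p = 0.827). AT2G33520 lay below the filter, with no array above 18.8.

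**Figure D3:**
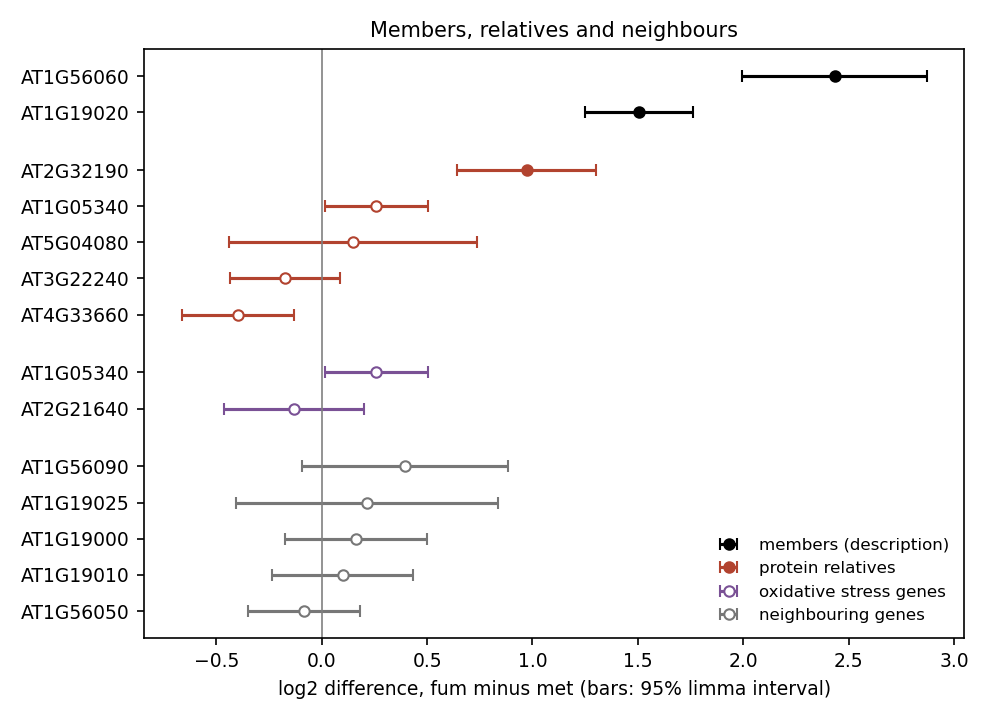
Log2 difference of fum minus met (horizontal axis) with the 95% limma interval for AT1G56060 and AT1G19020 (black, as a description), 5 tested protein relatives (red), 2 tested oxidative stress genes (purple) and 5 tested neighbouring genes (grey). Filled red marks a gene that passed, which is AT2G32190 at 0.97, and open marks did not pass. The black marks are filled without a test. This difference served to choose both genes, so their intervals do not allow for the choice and are not read as a test.

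The companions of AT1G19020 in the known response to reactive oxygen species were read next. Of 4 such genes, 3 had a probe set of their own in the annotation used. Of these, 2 were tested and none passed with limma, beside 2.57% of all probe sets. An unadjusted p below 0.05 was found for 1 of the 2 and for 17.9% of all probe sets. AT1G05340 is 1 of the 2, with the values above, and it passed as higher under the same alternatives. AT2G21640, which encodes a mitochondrial protein induced by oxidative stress, read 299.1 to 403.9 in fum and 308.4 to 504.5 in met, with overlapping groups (log2 -0.13, limma adjusted p = 0.702). AT1G57630, a gene of the TIR domain class of immune receptor proteins, had no array above 2.8 and was not tested.

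Genes next to AT1G56060 and AT1G19020 on the chromosome were taken by position alone, 5 protein-coding genes on each side. Of 20 neighbours, 14 had a probe set of their own in the annotation used and 5 passed the filter. None of these 5 was called with limma or had an unadjusted p below 0.05. Over all probe sets these shares were 2.57% and 17.9%. Their median log2 difference was 0.16. AT1G56050, directly before AT1G56060, read 57.7 to 69.2 in fum and 62.0 to 71.3 in met (log2 -0.09, adjusted p = 0.769). AT1G56090, on its other side, had the largest difference, at 0.40 with a 95% interval from -0.09 to 0.88 (adjusted p = 0.387). Beside AT1G19020, AT1G19010 had 0.10, AT1G19000, a MYB-related transcription factor gene, had 0.16 and AT1G19025 had 0.22 (limma adjusted p = 0.632 to 0.787). AT1G19025 was read by the brighter of its 2 probe sets. All 5 tested neighbours were dim, with group means from 31.18 to 66.95 beside the filter signal of 21.1. The groups overlapped in each of these 5 genes, where 12.4% of all probe sets lacked overlap in either direction.

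Wider stress responses were read from lists of genes known for them. None of the 4 tested early stress genes, of 29 listed, was called with limma, and 1 had an unadjusted p below 0.05 (2.57% and 17.9% of all probe sets). It was CML38, a calmodulin-like gene of the touch and wounding response, at 518.5 ± 55.4 in fum and 710 ± 188 in met (n = 4, SD; log2 -0.43, limma adjusted p = 0.181). WRKY53 (-0.29), STZ (-0.14), a zinc finger gene also called ZAT10, and CML37 (0.0030) had groups that overlapped. With 1 array left out WRKY53 ranged from -0.48 to -0.11 and STZ from -0.40 to -0.024. The median log2 difference of these 4 was -0.22.

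Of 4 tested genes known from pattern-triggered immunity, out of 17 listed, 1 fell and 3 did not pass. Their median was -0.16, and 2 were lower at an unadjusted limma p below 0.05. The one that fell was AT1G51850, a receptor-like kinase gene, at 24.2 to 42.0 in fum and 81.1 to 127.3 in met (log2 -1.72, limma adjusted p = 0.00221). WRKY22 (-0.31), the receptor-like cytoplasmic kinase gene BIK1 (0.23) and AT1G51890 (-0.01) did not pass. Of 7 tested genes known from mitochondrial dysfunction, out of 14 listed, 1 rose, 0 fell and 6 did not pass. Their median was -0.13. Before adjustment, 3 of these had a limma p below 0.05 as lower and 1 as higher. GSTU25, a glutathione transferase gene, rose by 1.50 on the log2 scale (limma adjusted p = 0.0159), a call lost without replicate 4 of either group (log2 1.36 and 1.45). The transporter genes AT2G04050 (-0.55) and AT2G04070 (-0.48), AT5G09570 (-0.40) and the alternative dehydrogenase gene NDB2 (0.25) did not pass. The share that rose over all probe sets was 1.47%, and the share that fell 1.11%. An unadjusted limma p below 0.05, in either direction, was found for 17.9% of all probe sets.

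The list of reference genes held 11, of which 5 were tested. None of the 5 was called with limma or had an unadjusted p below 0.05 (2.57% and 17.9% of all probe sets). Their log2 differences were -0.26 for AT2G28390, 0.10 for TUB6, -0.09 for GAPC2, -0.07 for AT4G34270 and -8.7e-05 for PEX4. Cultured cells have no single defining marker. Of 10 leaf cell markers, RCA alone had a probe set of its own in the annotation used. It read 382.7 to 464.4 in fum and 470.5 to 588.3 in met (log2 -0.29, limma adjusted p = 0.155). The 2 of 6 root hair markers with such a probe set summed to 11.5 to 59.4 in fum and 16.7 to 36.5 in met. None of 7 embryo and seed markers or 7 tracheary element markers had one in this annotation, which names no gene for 8794 of the 22810 probe sets. In bulk cultures fewer cells of a type and less RNA per cell cannot be told apart.

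The genes most like each of these genes were found by the root mean square distance between log2 profiles over the 8 arrays, each centred on its own mean, among 7470 other genes. This measure follows the group difference closely, so the genes named by it are described and not tested. Nearest to AT1G56060 were the cytochrome P450 gene CYP71B22 (distance 0.43), the matrix metalloproteinase gene AT1G24140 (0.45), AT1G50590 (0.49), AT1G19020 itself (0.50) and the zinc finger gene AT2G28710 (0.62), where the median distance of all genes was 1.28. Their ratios of fum to met ran from 2.84 to 5.07. CYP71B22 read 504.8 on fum replicate 3 and 439.7 on fum replicate 4, its highest arrays, as they were for AT1G56060. On met replicate 1, however, CYP71B22 read 58.9 and AT1G24140 read 26.0, near the low end of their groups, while AT1G56060 had its highest met value there.

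The genes nearest to AT1G19020, whose own difference was smaller, were AT3G60540, for a subunit of the SEC61 translocon (0.25), AT3G48450, of the RIN4 family (0.25), the sugar transporter gene SFP1 (0.26), AT2G32190 (0.29) and AT5G03610, of the GDSL lipase family (0.29), beside a median distance of 0.81. The 5 had ratios of 1.96 to 2.35. AT1G56060 lay at the 113th place of this order. AT2G32190, a protein relative of AT1G56060, therefore had a profile among the nearest to AT1G19020, and fum replicate 3 and met replicate 1 were its highest arrays, as they were for both genes. AT3G60540 also had its highest met array in replicate 1 (230.1). Its highest fum array, however, was replicate 4 (418.6), the lowest fum array of AT1G19020 (799.3). SFP1 had its highest met array in replicate 2 (275.2), so the match did not extend to every array.

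**Figure D4:**
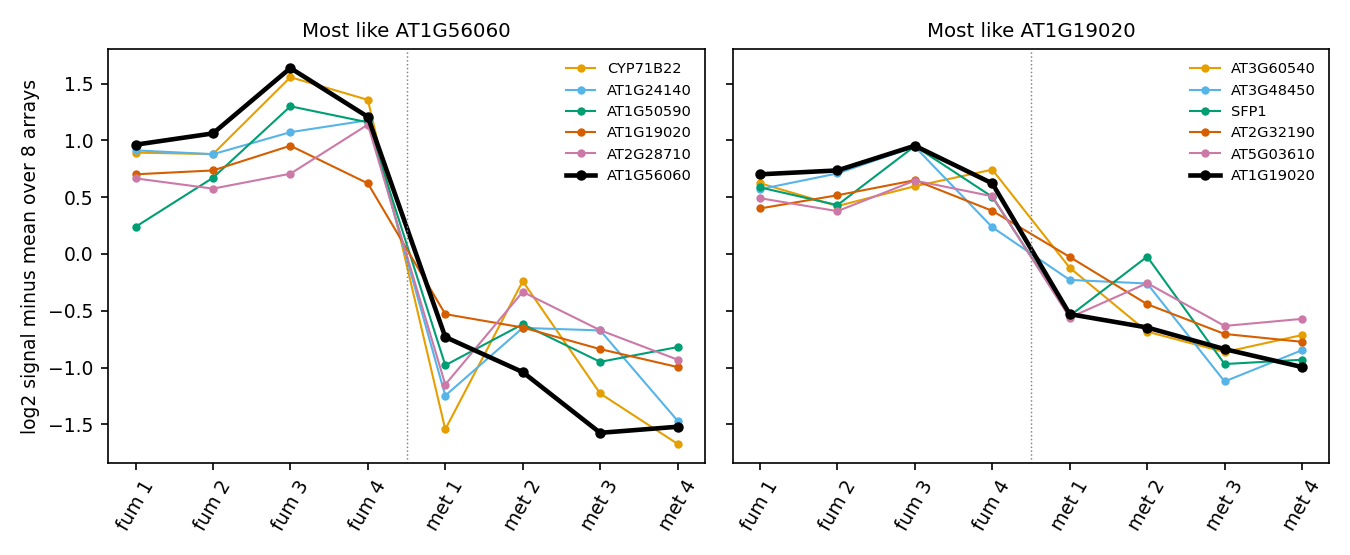
Log2 signal minus its mean over the 8 arrays (vertical axis) on each array (horizontal axis) for AT1G56060 (left, black) and AT1G19020 (right, black) with the 5 genes nearest to each in colour; lines join points for the eye, since replicates have no order. Distances to the black profile are 0.43 to 0.62 on the left and 0.25 to 0.29 on the right, where the difference between the groups is also smaller.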

How the data were processed

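The authors deposited 1 table of signal intensities for 22810 probe sets on 8 arrays. MAS5 made them, per the submitters' processing notes, which give no version. They lie on a linear scale, and array means taken between the 2nd and 98th percentile were 99.5 to 99.8. The submitters' notes state no genome build, and no coordinates are printed.

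The 93 zeros were set to the lowest positive signal (0.1), signals were taken to log2, and 64 control probe sets were left out. Probe sets entered the test with a mean log2 signal above the 40th percentile (a signal of 21.1), which left 13647. The fit of fum against met used limma 3.58.1 (R 4.3.3) with lmFit and a trended eBayes. P-values were two-sided, adjusted by Benjamini-Hochberg across the 13647, and passed under 0.05. The procedure was tested on simulated data.

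A gene was read by its brightest unshared probe set. Names came from the supplied annotation, with 13513 probe sets for 1 gene, 503 for several and 8794 for none, updated through RefSeq (TAIR10.1, 13436 matched), which also gave the order of genes. Relatives were taken from known families, with no sequence search. The rule for named genes took all tested relatives, oxidative stress genes and neighbours, up to 5 of each other list by smallest p, and the 5 nearest profiles. AT2G33520 and AT1G57630, both below the filter, are named beside them. The 2 genes and the lists were chosen with earlier results of these data known. Controls were compared with exact permutation tests.

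Alternatives were other normalizations, offsets, filters and variance models, array weights, a replicate block and the omission of each array. The labels do not say whether equal replicate numbers mark pairs, and the main fit did not pair the arrays.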

Additional observations from a re-analysis of the deposited data

Results flagged for a closer look

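In 116 groups of 4 arrays, 8 held an array whose distance to its nearest neighbour exceeded Dixon's 95% limit as a share of the group's range, where chance gives about 1 in 20. Neither AT1G56060 nor AT1G19020 was among them. Met replicate 1 stood apart in 4 of the 8, reading 1350 for AT1G05340 against 950.2 to 1006 on the other met arrays, 989.7 for CML38 (AT1G76650) against 596.4 to 642.9, 12.01 for the actin 3′ to 5′ ratio against 2.08 to 2.32 and 2.94 for the ubiquitin ratio against 1.44 to 1.58. STZ (AT1G27730) read 1496 on fum replicate 1 against 973.2 to 1055. The reference gene AT2G28390 read 54.3 on fum replicate 2 against 116.3 to 122.5. The neighbouring genes AT1G56100 (1.6 on met replicate 2 against 2.6 to 2.7) and AT1G18990 (2.8 on met replicate 3 against 0.6 to 0.9) were too dim to be tested.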

How the results depend on the processing

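The log2 differences of AT1G56060 and AT1G19020, and the excess of the first over the second, kept their direction and moved by less than the spread between replicates under each alternative, from 2.29 to 2.62, 1.42 to 1.60 and 0.84 to 1.02. The count of 351 called probe sets became 116 after centring on the array median, 164 without the intensity trend, 1323 with array weights and 112 to 415 with 1 array left out. With the replicate number as a block it was 115, and the differences of the 2 genes and the count of relatives called were as before. Same-numbered arrays had correlations of their deviations from the group means between -0.47 and 0.14, and differently numbered arrays between -0.44 and 0.37. The deviations within a group depend on each other, so these values cannot decide whether the numbers pair the arrays. On the 5 arrays with high 25S signal the count was 575, on the 3 low arrays, with 1 fum array, 12, and with both kinds as a block 789. These 3 settings were chosen after seeing the data.

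Relatives that rose numbered 2 after quantile normalization, with array weights and on the high-25S arrays, 1 to 2 with 1 array left out and 0 on the low-25S arrays, where so few calls say nothing about stability, and relatives that fell numbered 1 with array weights. Oxidative stress genes that rose numbered 1 after quantile normalization, with array weights and on the high-25S arrays, and 0 to 1 with 1 array left out. With array weights 2 pattern-triggered and 2 mitochondrial genes fell. Mitochondrial genes that rose numbered 0 to 1 with 1 array left out.

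Signs turned only for genes that did not pass. After quantile normalization AT3G22240 stood at 0.027, CML37 (AT5G42380) at -0.012 and GAPC2 (AT1G13440) at 0.065, after centring CML37 at -0.027, with array weights AT4G34270 at 0.10 and with 16 added PEX4 (AT5G25760) at 0.00015. With 1 array left out AT5G04080 ranged from -0.091 to 0.33, AT2G21640 from -0.23 to 0.0032, AT1G19025 from -0.041 to 0.43, CML37 from -0.14 to 0.19, AT1G51890 from -0.21 to 0.24, AT2G28390 from -0.38 to 0.024, AT4G34270 from -0.21 to 0.045 and PEX4 from -0.062 to 0.067. The cause of these changes was not tested.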
